A study of Mus musculus with 6 samples.

Results

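38 genes of the heat shock response and of the unfolded protein response (UPR) were followed across 6 arrays that measured expression in regulatory T cells (Tregs) of the mouse, the CD4 T cells that hold other immune cells in check. They were taken by gene name from the platform's annotation of 45101 probe sets, each of which reads 1 stretch of a transcript. Only probe sets annotated to 1 gene were used, and 36 of the 38 genes had one, with 99 probe sets in all. For Hsf1, the main heat shock transcription factor, and for Hsp90ab1, a cytosolic Hsp90, no probe set named that gene alone. 35 of the 36 were bright enough to test among 10916 genes. The exception was Chac1, a glutathione-degrading enzyme of the Atf4 branch, whose only probe set had signals of 5.63 to 84.0.

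The arrays came in 3 groups of 2. In each group, cells that carried a FoxP3GFP reporter on a C57Bl/6 background had been taken from the spleen and lymph nodes of mice aged 8 to 11 weeks and sorted as CD4+CD25+FoxP3+. WT vehicle cells (A2AR+/+, wild type for the adenosine 2A receptor) and KO vehicle cells (A2AR-/-, lacking it) received DMSO, and WT ATL1222 cells (A2AR+/+) received 10 nM of ATL1222, which per the labels activates that receptor selectively. Every culture lasted 18 h, in RPMI medium with 10% serum and a reducing agent, b-mercaptoethanol, labelled at 55 mM, and the labels call the cells unactivated. The replicates are labelled biological, but whether 1 animal gave 1 array is not said, so the p-values speak only to the spread of these 6 arrays, which may be technical. ATL1222 on cells without the receptor was not analysed here, so in WT ATL1222 against KO vehicle the genotype and the agonist cannot be told apart.

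Chaperones bind unfolded proteins and help them fold. In the cytosol, heat and other stress release the factor Hsf1, which switches on genes such as Hspa1a and Hspb1. In the endoplasmic reticulum (ER), where secreted and surface proteins fold, 3 membrane sensors report unfolded protein: Ern1 (IRE1) cuts the Xbp1 transcript so that it encodes an active transcription factor, Atf6 is released by cleavage, and Eif2ak3 (PERK) slows translation and lets Atf4 be made. The UPR is best known in lymphocytes for Xbp1, which antibody-secreting plasma cells need. Much of its control, cleavage of Xbp1 and translation of Atf4 among it, acts after transcription and is not read by the amount of a transcript.

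Signals are intensities on a linear scale. The authors' scaling gave every array the same trimmed mean, median signals ran from 74.7 to 98.2, and the ratio of 3' to 5' signal of Actb, which rises as RNA breaks down, from 1.93 to 2.53. Of 8 Treg markers, 7 were above the limit for dim genes. The exception was Foxp3, which defined the sort, with signals of 7.18 to 53.5. Ikzf2, the factor Helios, lay between 6810 and 8431. In WT ATL1222 against KO vehicle, Tnfrsf18 and Ctla4 were higher with ATL1222, with log2 fold changes of 1.11 and 0.75 (limma adjusted p = 0.00326 and 0.037). For Ikzf2, Cd4, Cd3e, Il2ra and Nrp1 the values were 0.12, 0.15, -0.033, -0.27 and -0.40, and none had an adjusted p under 0.05.

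In KO vehicle against WT vehicle, which asks what loss of the receptor changes without agonist, 0 of the 35 members passed the test (limma adjusted p under 0.05), and over all genes tested 0.0275% passed. 2 members, Pdia4 and Xbp1, both lower in the knockout, had an unadjusted p under 0.05, 5.71% of members against 3.89% of all genes. Signals did not overlap between the groups for 4 members that were higher in the knockout (11.4%, against 15.9% of all genes) and for 5 that were lower (14.3%, against 13.7%). The median log2 fold change of the members was -0.0063, against 0.0048 for all genes, and 33 of 35 lay within 0.5 of 0. These shares were near those of all genes. In bulk samples such as these, fewer cells of a type and less RNA per cell cannot be told apart.

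In WT ATL1222 against WT vehicle, the response to the agonist, 0 of 35 members passed, with 0.211% of all genes passing. Xbp1 alone had an unadjusted p under 0.05 (2.86% of members, against 5.03% of all genes). 9 members were higher with ATL1222 on both arrays than on either WT vehicle array (25.7%, against 14.5% of all genes): Hspa8, Dnaja1, Dnajb1, Hspa5, Xbp1, Ern1, Edem1, Trib3 and Asns. Only Pdia6 was lower in that way (2.86%, against 16.3%). Log2 fold changes were positive for 25 of 35 members (71.4%, against 48.6% of all genes). They ran from -0.39 to 0.52, with a median of 0.092 against -0.0079 for all genes.

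In WT ATL1222 against KO vehicle, 1 of 35 members passed: Xbp1 was 1.69-fold higher with the agonist. That is 2.86% of members, against 0.999% of all genes tested. Xbp1, Hspa5 and Dnaja1 had an unadjusted p under 0.05 (8.57%, against 8.48% of all genes). 11 members were higher without overlap between the groups (31.4%, against 17.4%) and 5 were lower (14.3%, against 20.9%). The median log2 fold change was 0.090, against -0.022 for all genes, and 34 of 35 lay within 0.5 of 0. The 3 comparisons share their groups pairwise, so their values are not independent of each other.

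**Figure D1:**
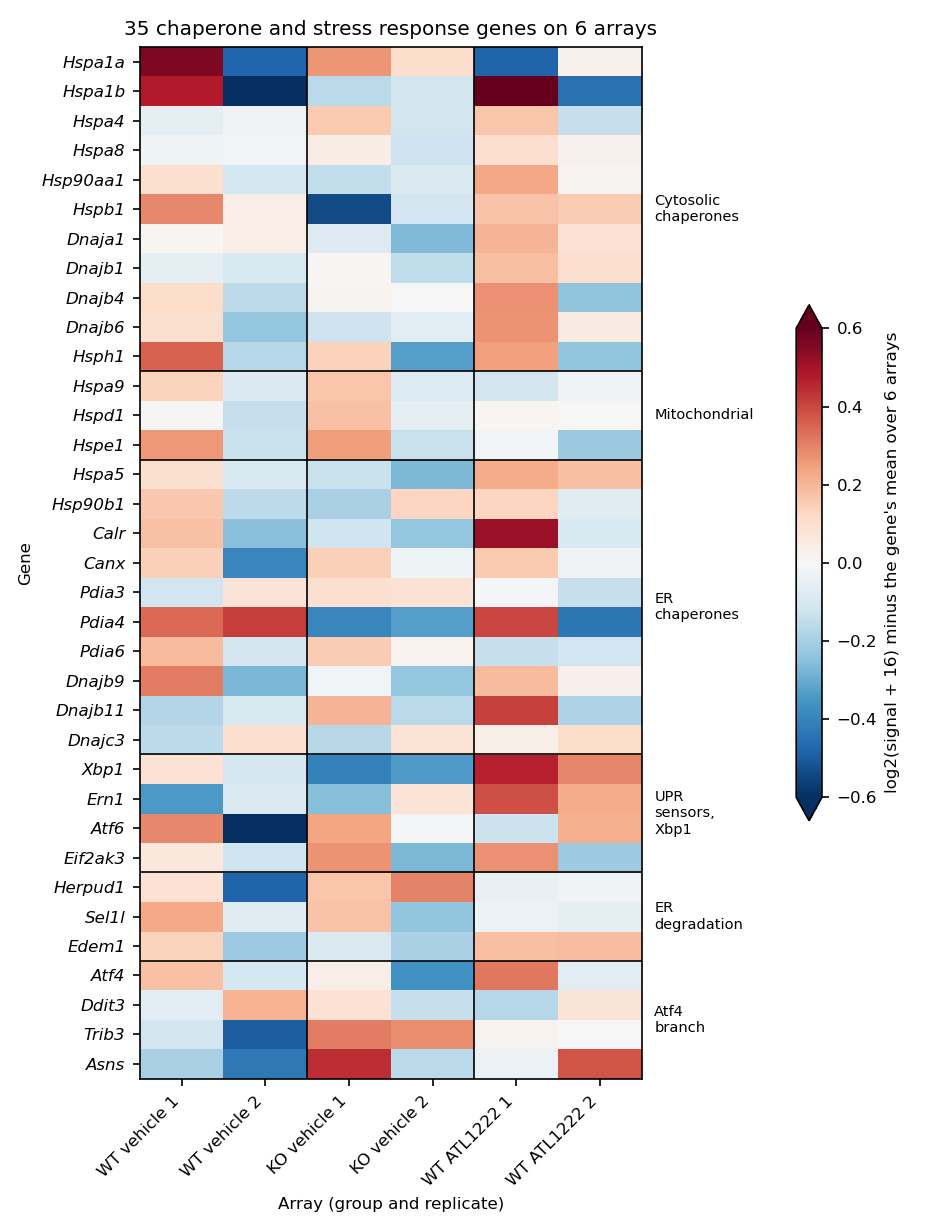
Heat map of the 35 tested members (rows, grouped by role) on the 6 arrays (columns), coloured by log2(signal + 16) minus the gene's mean over the 6 arrays. Xbp1 is low on both KO vehicle arrays and high on both WT ATL1222 arrays, while Hspa1b differs widely within groups, at 219.9 and 85.9 in WT vehicle.

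**Figure D2:**
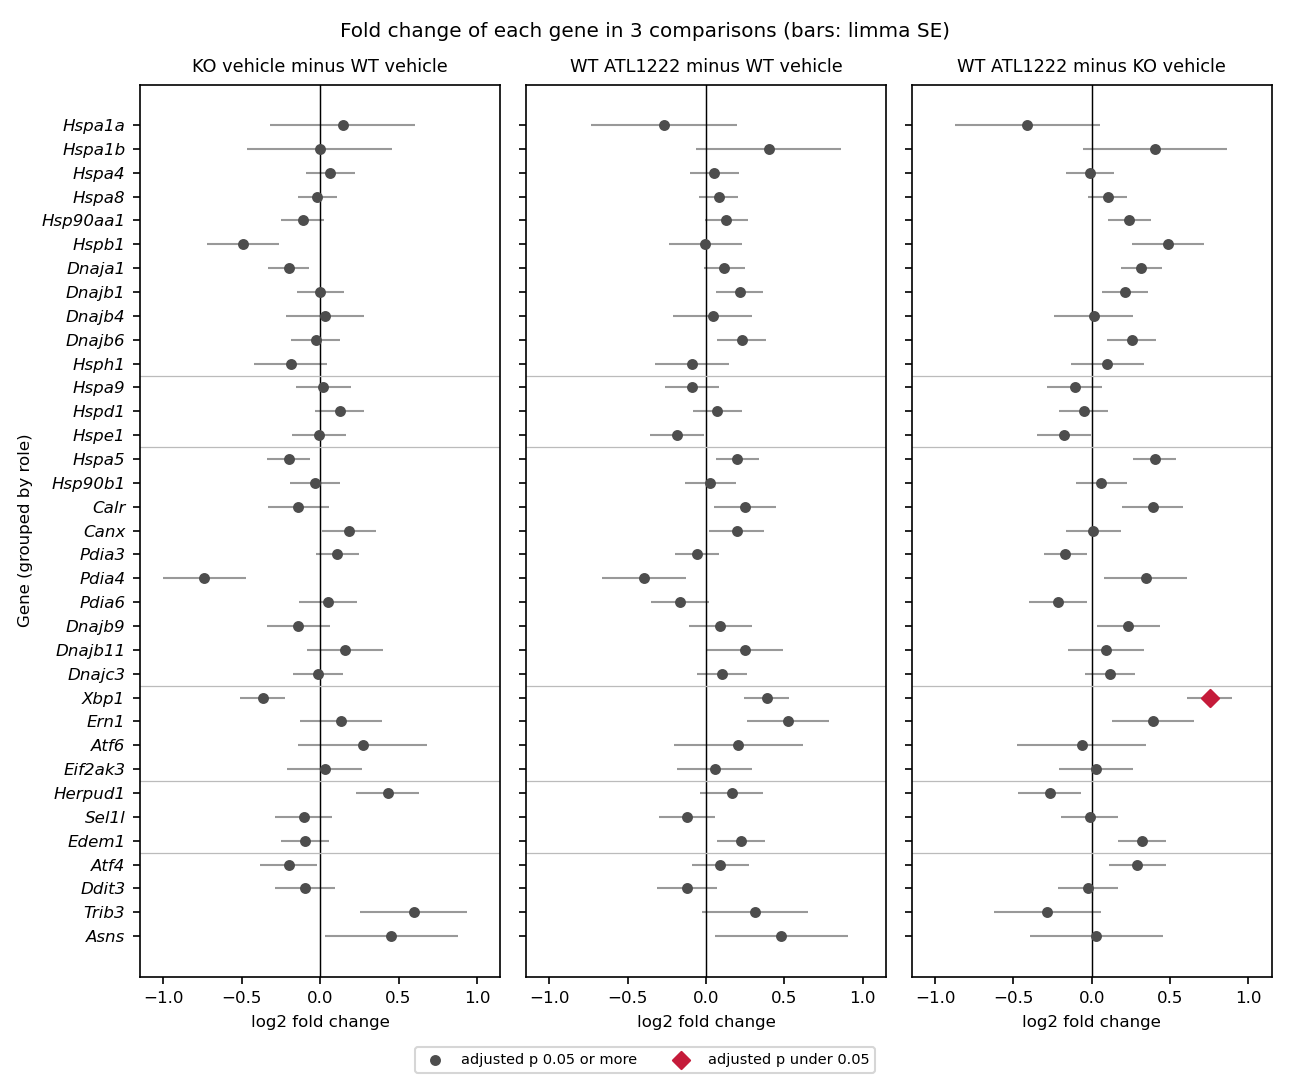
Log2 fold change of each member (points) with its limma standard error (bars) in the 3 comparisons. Of the 105 values shown, only Xbp1 in WT ATL1222 minus KO vehicle, at 0.75, has an adjusted p under 0.05 (red diamond).

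**Figure D3:**
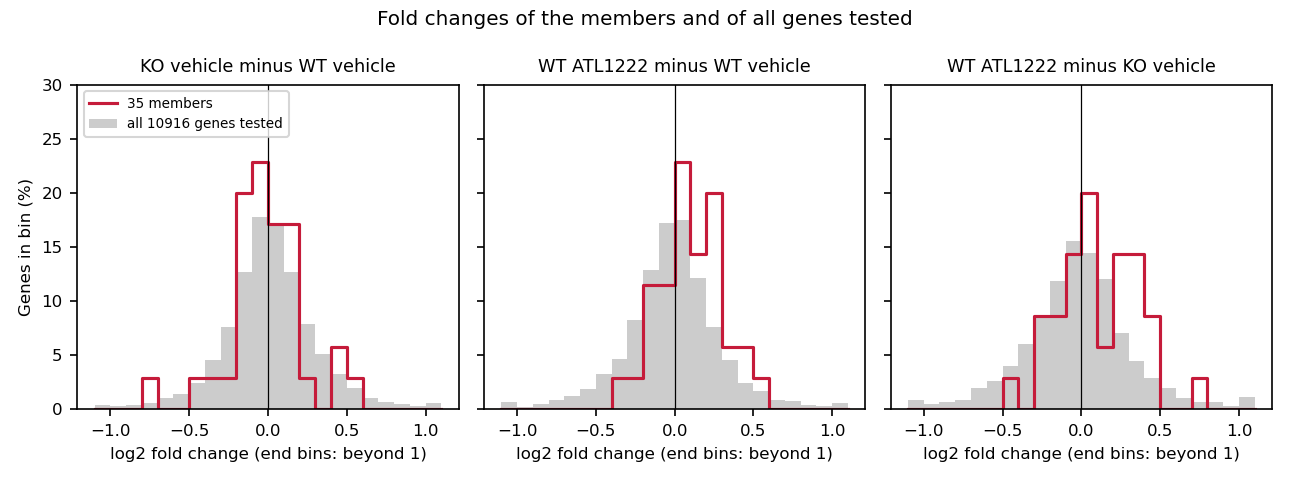
Share of genes (%) in bins of log2 fold change, for the 35 members (red line) and for all 10916 genes tested (grey bars), with values beyond 1 in either direction collected in the end bins. Most members lie near 0, with 33, 34 and 34 of 35 within 0.5 of 0 in the comparisons from left to right.

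Of the 13 cytosolic members, 11 were tested and 0 passed in any comparison. Their median log2 fold change was -0.019 for the knockout against WT vehicle, 0.083 for ATL1222 against WT vehicle and 0.21 for ATL1222 against the knockout. Hspa8, the constitutive Hsp70 that serves folding in unstressed cells, varied little on its brightest probe set, with signals from 12639 to 14780 over the 6 arrays. Its log2 fold change in WT ATL1222 against WT vehicle was 0.083 with a 95% confidence interval (limma, as for all intervals of 1 gene here) of -0.18 to 0.35. Its other tested probe sets gave 0.14, 0.28 and -0.11 in that comparison, and the one at 0.28 ran from 2567 to 3844.

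Dnaja1 is an Hsp40 co-chaperone that hands substrates to Hsp70. Its signal was 5087 and 5188 in WT vehicle, 4769 and 4191 in KO vehicle, and 5806 and 5351 with ATL1222. The 3 groups did not overlap, and KO vehicle was lowest. The difference between WT ATL1222 and KO vehicle, a log2 fold change of 0.32 ± 0.13 (SE), did not pass (limma adjusted p = 0.465). It had 2 more probe sets tested, with log2 fold changes of 0.55 and 0.42 in that comparison.

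Hspb1, the small heat shock protein Hsp27, binds unfolded protein without using ATP. Its signal was 372 and 311 in WT vehicle, 203 and 278 in KO vehicle, and 342 and 337 with ATL1222. On this probe set both knockout arrays lay below the other 4. The log2 fold change was -0.49 ± 0.23 in KO vehicle against WT vehicle (limma adjusted p = 1.00) and 0.49 ± 0.23 in WT ATL1222 against KO vehicle (limma adjusted p = 0.597). A second tested probe set gave -0.62 and 0.46. It read 305 and 165, 152 and 130, and 346 and 111 in the same order of groups, so an ATL1222 array lay below both knockout arrays.

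Dnajb1 (Hsp40), a classic Hsf1 target, read 1254 and 1223 in WT vehicle, 1314 and 1169.8 in KO vehicle, and 1481 and 1399 with ATL1222. The ATL1222 arrays were the highest and the vehicle groups overlapped. Against WT vehicle the log2 fold change was 0.21 ± 0.15 (limma adjusted p = 0.998). Dnajb6, an Hsp40 that holds back protein aggregation, read 1849 and 1470.3, 1587 and 1649.8, and 2086 and 1796 in the same order of groups. On this probe set WT vehicle overlapped with both other groups. The ATL1222 arrays lay above the knockout arrays, with a log2 fold change of 0.26 ± 0.16 (limma adjusted p = 0.753). Its other tested probe sets gave -0.10, 0.23 and 0.29 in that comparison. The one at 0.23 read 199 and 250, 331 and 317, and 376 and 392 in the same order. There WT vehicle lay below both other groups.

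The stress-inducible Hsp70 genes varied most between replicates. Hspa1b read 219.9 and 85.9 in WT vehicle, 136 and 141 in KO vehicle, and 320.4 and 108 with ATL1222, so the ATL1222 arrays held the highest signal and also 1 of the lowest. For Hspa1a the log2 fold change in WT ATL1222 against KO vehicle was -0.41 ± 0.46, and for Hspa1b 0.40 ± 0.46, opposite in sign with intervals of -1.41 to 0.59 and -0.59 to 1.40. The transcripts of Hspa1a and Hspa1b are near copies, and probe sets can bind both, so their values are uncertain. The remaining cytosolic members were Hspa4, Hsph1 (both nucleotide exchange factors of Hsp70), Hsp90aa1 (the inducible Hsp90) and Dnajb4. On their brightest probe sets the log2 fold changes over the 3 comparisons ran from -0.19 for Hsph1 to 0.24 for Hsp90aa1. Their other tested probe sets ran from -0.48 for Dnajb4 to 0.59 for Hsp90aa1, both in WT ATL1222 against KO vehicle. Another probe set of Hsp90aa1 gave 0.23 in that comparison.

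The heat shock element, which Hsf1 binds, was looked for in RefSeq promoters (build GRCm38.p6, 250 bases before to 50 after an annotated start). 32 of the 38 members had a promoter there, while Hspa8, Hspa9, Hsp90aa1, Hsp90ab1, Hsf1 and Atf6 had none. The core GAANNTTC, which reads the same on both strands, stood in 7.86% of all 32851 promoters. By gene it was in 9.04% of all genes, and in 9 of the 32 members: 6 of 9 cytosolic genes, both mitochondrial genes with a promoter, 0 of 10 ER chaperones, and Asns. The stretches below, 5′ to 3′ along each gene's strand with the core in capitals, are shown because the core was found among the cytosolic and not among the ER chaperones, and because the 2 Hsp70 genes carry the same letters there.
Hspa1a, chr17:34972228-34972285, minus strand: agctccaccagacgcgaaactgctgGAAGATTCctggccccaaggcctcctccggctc
Hspa1b, chr17:34959310-34959367, minus strand: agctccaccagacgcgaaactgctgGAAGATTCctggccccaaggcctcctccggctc
Hspb1, chr5:135887777-135887854, plus strand: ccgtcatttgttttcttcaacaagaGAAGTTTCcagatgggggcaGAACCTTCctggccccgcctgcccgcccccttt
Over the 250 bases before the start, Hspa1a and Hspa1b shared 247. Hspb1 held the core at 2 places. A match is a description of the letters and shows no binding. Of the 9 genes with a match 0 passed the test.

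The 3 mitochondrial chaperones overlapped between all groups, and 0 passed. Hspd1 (Hsp60) and Hspe1 (Hsp10) form the folding chamber of the mitochondrial matrix, and Hspa9 (mortalin) is its Hsp70. Hspd1 read 1096 and 988 in WT vehicle, 1233 and 1047 in KO vehicle, and 1098 and 1093 with ATL1222, with overlap between all groups. Hspe1 read 2803 and 2126, 2779 and 2126, and 2305 and 1996 in that order, again with overlap. Hspa9 read 783 and 669.8, 801 and 673, and 658 and 702, also with overlap. With ATL1222 set against WT vehicle their log2 fold changes were 0.073 ± 0.16, -0.19 ± 0.17 and -0.089 ± 0.18, and all 9 values of the 3 comparisons had 95% intervals within 1 of 0 on the log2 scale.

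All 10 ER chaperones and folding enzymes were tested and 0 passed. Their median log2 fold change was -0.023 for the knockout against WT vehicle, 0.097 for ATL1222 against WT vehicle and 0.10 for ATL1222 against the knockout. Hspa5 (BiP), the ER's Hsp70, holds the sensors inactive and is the standard readout of ER stress. Its signal was 2909.8 and 2551 in WT vehicle, 2483 and 2257 in KO vehicle, and 3182 and 3087 with ATL1222. The 3 groups did not overlap. The log2 fold change was -0.20 ± 0.14 for the knockout against WT vehicle, 0.20 ± 0.14 for ATL1222 against WT vehicle and 0.40 ± 0.14 for ATL1222 against the knockout. The last had a limma adjusted p of 0.305. Its 2 other probe sets gave 0.48 and -0.19, and with all 3 averaged the value was 0.23.

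Calr (calreticulin), which folds glycoproteins and stores calcium, read 2065 and 1530.0 in WT vehicle, 1675 and 1553 in KO vehicle, and 2615 and 1711 with ATL1222. On this probe set the first ATL1222 array stood above all others, while the second lay just above the knockout arrays and within the range of WT vehicle. The log2 fold change in WT ATL1222 against KO vehicle was 0.39 ± 0.20 (limma adjusted p = 0.652). Its other tested probe sets gave 0.32 and 0.16 in that comparison. They read 850 and 806, and 775 and 714, with ATL1222, and for each both ATL1222 arrays lay above every other array.

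Pdia4 (ERp72), which forms and reshuffles disulfide bonds, had the largest difference of any member between the vehicle groups. Its signal was 379.7 and 402 in WT vehicle, 223 and 233 in KO vehicle, and 397 and 216 with ATL1222. Both knockout arrays were below both WT vehicle arrays, and the ATL1222 arrays split, 1 at the level of WT vehicle and 1 at that of the knockout. The log2 fold change in the knockout was -0.74 ± 0.27, 1.67-fold lower (limma adjusted p = 1.00), with an interval of -1.31 to -0.17. It rests on 1 tested probe set: the other, at 3.75 to 83.5, was too dim to test, and with both averaged the log2 fold change was -0.050.

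The other ER members were Hsp90b1 (Grp94), Canx (calnexin), the disulfide isomerases Pdia3 and Pdia6, and the co-chaperones of Hspa5, Dnajb9, Dnajb11 and Dnajc3. On their brightest probe sets the log2 fold changes ran from -0.22 (Pdia6, WT ATL1222 against KO vehicle) to 0.25 (Dnajb11, WT ATL1222 against WT vehicle). Their other tested probe sets ran from -0.36 (Pdia3) to 0.59 (Dnajc3), both in WT ATL1222 against WT vehicle. Pdia6 read 608 and 493 in WT vehicle, 594 and 541 in KO vehicle, and 482 and 489.5 with ATL1222. Its ATL1222 arrays were the lowest, opposite to Hspa5, and its limma adjusted p was 0.998 against WT vehicle.

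The ER stress element, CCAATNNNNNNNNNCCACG on either strand, is the site at which NF-Y and cleaved Atf6 bind. It stood in 0.119% of all promoters and in 37 of 27025 genes (0.137%). It was found in 6 of the 32 members, all of them among the 10 ER chaperones and folding enzymes: Hspa5, Hsp90b1, Calr, Canx, Pdia6 and Dnajc3. These stretches are shown with the element in capitals, since the element is rare among promoters and these 6 genes share it.
Hspa5, chr2:34771985-34772083, plus strand: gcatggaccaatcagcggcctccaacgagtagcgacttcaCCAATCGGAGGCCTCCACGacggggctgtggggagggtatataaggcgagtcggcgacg
Hsp90b1, chr10:86705521-86705668, minus strand: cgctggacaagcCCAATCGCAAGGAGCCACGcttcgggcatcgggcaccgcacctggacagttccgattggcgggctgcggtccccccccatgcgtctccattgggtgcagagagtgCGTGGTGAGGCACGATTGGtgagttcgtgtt
Calr, chr8:84847063-84847105, minus strand: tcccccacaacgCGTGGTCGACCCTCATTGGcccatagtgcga
Canx, chr11:50325788-50325830, minus strand: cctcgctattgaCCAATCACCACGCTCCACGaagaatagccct
Pdia6, chr12:17266479-17266521, plus strand: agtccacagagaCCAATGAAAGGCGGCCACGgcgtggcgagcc
Dnajc3, chr14:118937815-118937857, plus strand: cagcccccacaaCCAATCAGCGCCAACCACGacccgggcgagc
Hsp90b1 held the element at 2 places, 1 on each strand, and Calr held it on the opposite strand. Between ATL1222 and the knockout these 6 genes had log2 fold changes of 0.40 (Hspa5), 0.39 (Calr), 0.12 (Dnajc3), 0.061 (Hsp90b1), 0.011 (Canx) and -0.22 (Pdia6). The values thus lay on both sides of 0, and 0 of the 6 genes passed.

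Xbp1, the transcription factor made active when Ern1 cuts its transcript, was the only member past the test. Its brightest probe set read 2154 and 1888 in WT vehicle, 1526 and 1597 in KO vehicle, and 2803 and 2489 with ATL1222. The 3 groups did not overlap, with the knockout lowest and the agonist highest. With ATL1222 it was 1.69-fold higher than in the knockout, a log2 fold change of 0.75 ± 0.14 with an interval of 0.45 to 1.06 (limma adjusted p = 0.0193), and 0.87 and 0.64 within replicates 1 and 2. Against WT vehicle it differed by -0.37 ± 0.14 in the knockout (limma adjusted p = 1.00) and by 0.39 ± 0.14 with ATL1222 (limma adjusted p = 0.735), so neither of these steps passed.

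The call for Xbp1 was not a firm one. Of 17 other ways of processing the arrays, 10 kept the adjusted p under 0.05, and the log2 fold change ran from 0.67 to 0.84. It was lost without the first KO vehicle array (limma adjusted p = 0.100), without the second (0.0803), without the first WT ATL1222 array (0.311), without the second (0.0697), with probe sets averaged (0.0834), with every probe set tested separately (0.0536) and without the variance trend (0.358). The 3 other probe sets of Xbp1 gave log2 fold changes of 0.74, 0.88 and 0.71. These read 1897 and 1235, 775 and 742, and 97.7 and 127 in WT vehicle. In KO vehicle they read 1433 and 1244, 482 and 517, and 119.9 and 86.7. With ATL1222 they read 2384 and 2098, 871 and 990.5, and 132 and 236, above every array of the other groups for each probe set. Probe sets read the same RNA and are not replicates, and these signals do not tell cut from uncut Xbp1.

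**Figure D4:**
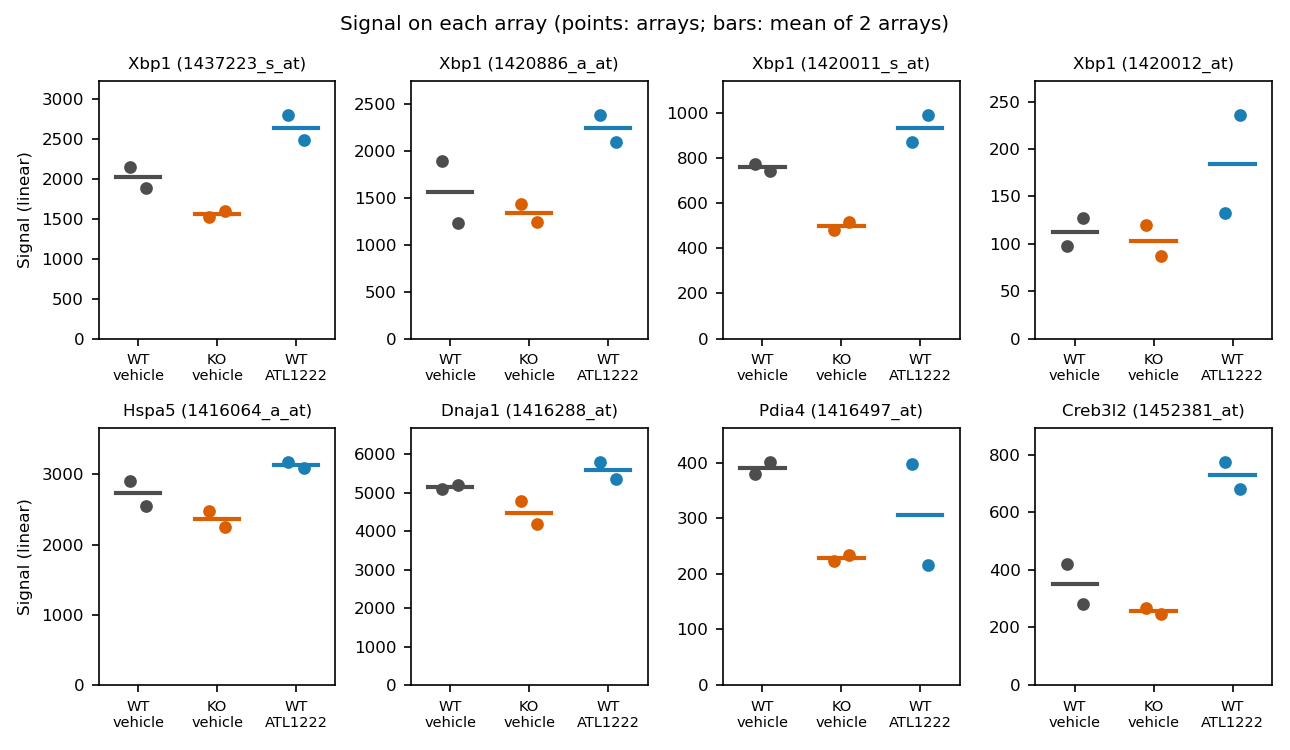
Signal on a linear axis from 0 for each array (points) and the mean of each group's 2 arrays (bars), for the 4 probe sets of Xbp1, for Hspa5, Dnaja1 and Pdia4, and for Creb3l2, which is not a member. For all 4 Xbp1 probe sets both ATL1222 arrays lie above both knockout arrays, with log2 fold changes of 0.71 to 0.88, and Pdia4 splits between its ATL1222 arrays, 397 against 216.

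Plasma cells are rich in Xbp1, so their other markers were read on the same arrays. Of 7 markers 6 had a probe set named and 5 were above the limit for dim genes. Their summed signal was 882 to 2105 in WT vehicle, 991 to 1002 in KO vehicle and 1179 to 1440 with ATL1222. Sdc1, the plasma cell surface marker CD138, read 132 and 135 in WT vehicle, 94.97 and 37.0 in KO vehicle, and 153 and 135 with ATL1222, lowest in the knockout. Jchain, which joins secreted antibodies, read 1084 and 97.9, 41.6 and 178, and 424 and 185, and its highest signal was on a WT vehicle array. For the other 3 above the limit the signs differed: in the knockout against WT vehicle, Prdm1, the factor that drives plasma cell formation, had a log2 fold change of 0.28, Mzb1 of 0.89 and Tnfrsf13b of -0.094, and with ATL1222 against the knockout -0.019, 0.098 and -0.028. None of the 5 passed the test in any comparison (the lowest limma adjusted p was 0.429). The cells had been sorted as CD4+CD25+FoxP3+, and the part of any plasma cells in the Xbp1 result was not tested. The promoter of Xbp1 held none of the motifs searched. The 250 bases before its start held 0 copies of either letter group of the ER stress element, CCAAT or CCACG, on either strand, and the 100 bases next to the start are given for comparison with the chaperones.
Xbp1, chr11:5520541-5520640, plus strand: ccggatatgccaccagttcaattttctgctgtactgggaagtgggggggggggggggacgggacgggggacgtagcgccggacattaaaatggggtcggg

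The 3 sensors did not pass in any comparison. Ern1, the enzyme that cuts Xbp1, read 161 and 196 in WT vehicle, 173 and 223 in KO vehicle, and 279 and 247 with ATL1222. Its ATL1222 arrays were the highest and the vehicle groups overlapped. The log2 fold change was 0.52 ± 0.26 against WT vehicle (limma adjusted p = 0.998) and 0.39 ± 0.26 against the knockout, while a second tested probe set gave -0.32 and -0.56. Atf6 was dim and scattered. Its brightest probe set read 131 and 63.0, 126 and 103, and 94.1 and 124, with overlap throughout and intervals as wide as -0.61 to 1.16. A second tested probe set of Atf6 read 103 and 66.0, 21.4 and 133, and 128 and 185. There the ATL1222 arrays lay above the WT vehicle arrays. The log2 fold changes with ATL1222 were 0.79 ± 0.62 against WT vehicle and 1.19 ± 0.62 against the knockout. Eif2ak3, the kinase PERK, had log2 fold changes of 0.028, 0.056 and 0.028 in the 3 comparisons, with overlap in each.

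ER-associated degradation returns misfolded proteins to the cytosol for destruction, and 0 of its 3 members passed. Herpud1, which assembles the export complex, read 668 and 445 in WT vehicle, 707 and 776 in KO vehicle, and 608 and 618 with ATL1222. The knockout arrays were the highest, with a log2 fold change of 0.43 ± 0.20 against WT vehicle (limma adjusted p = 1.00). Edem1, which picks out misfolded glycoproteins and is an Xbp1 target, read 1858 and 1454, 1594 and 1479, and 1923 and 1925 in the same order. Its ATL1222 arrays were the highest, with a log2 fold change of 0.32 ± 0.15 against the knockout (limma adjusted p = 0.605). Sel1l, the scaffold of the export complex, had values between -0.12 and -0.014. Its 3 other tested probe sets gave 0.45, 0.76 and 0.11 in the knockout against WT vehicle, and with probe sets averaged that value turned from -0.11 to 0.32.

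Of the 5 members of the Atf4 branch, the arm that follows Eif2ak3 and also amino acid shortage, 4 were tested and 0 passed. Atf4 itself read 1979 and 1628 in WT vehicle, 1798 and 1355 in KO vehicle, and 2184 and 1675 with ATL1222. On this probe set, its brightest, the first replicate was the higher one in every group and all groups overlapped. The log2 fold change in WT ATL1222 against KO vehicle was 0.29 ± 0.18 (limma adjusted p = 0.761). A second tested probe set of Atf4 read 1459 and 1269, 863 and 1237, and 1561 and 1470 in the same order of groups. There the 3 groups did not overlap, with the knockout lowest. It gave -0.39 in the knockout against WT vehicle and 0.54 ± 0.18 in WT ATL1222 against KO vehicle. Ddit3 (CHOP), which promotes death under lasting ER stress, had log2 fold changes between -0.12 and -0.024 on its brightest probe set. A second tested probe set, dimmer and more scattered, gave -0.83 in the knockout against WT vehicle. With ATL1222 it gave 0.17 against WT vehicle and 1.00 ± 0.65 against the knockout.

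Trib3 and Asns are further targets of Atf4, both with low signals. Trib3, a pseudokinase that restrains Atf4 signalling, read 112 and 82.1 in WT vehicle, 155 and 152 in KO vehicle, and 125 and 122 with ATL1222. On this probe set the 3 groups did not overlap, and the knockout was highest, where Atf4 had its lowest mean. The log2 fold change of Trib3 in the knockout was 0.60 ± 0.34 (limma adjusted p = 1.00). A second tested probe set of Trib3 read 91.7 and 31.5, 75.9 and 127, and 149 and 92.8 in the same order. There the knockout overlapped with both other groups. In WT ATL1222 against KO vehicle the second gave a log2 fold change of 0.23, and the first -0.29. Asns (asparagine synthetase) read 77.7 and 63.6, 129.6 and 79.9, and 88.4 and 123 in the same order. WT vehicle was lowest, the other groups overlapped, and the log2 fold changes against it were 0.45 ± 0.42 and 0.48 ± 0.42, with intervals of -0.46 to 1.36 and -0.43 to 1.39.

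The amino acid response motif TGATGNAA, at which Atf4 and its partners bind, was on either strand of 3.97% of all promoters and in 4.51% of all genes. Of the 32 members 4 held it, namely Asns, Chac1, Trib3 and Herpud1, so 3 of the 5 Atf4 branch genes and 1 gene of ER-associated degradation. The motif lay before the start in 3 of them, given here with the motif in capitals because Herpud1 shares it with genes of the branch.
Asns, chr6:7693210-7693257, minus strand: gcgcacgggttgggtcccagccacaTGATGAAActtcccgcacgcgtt
Chac1, chr2:119351024-119351081, plus strand: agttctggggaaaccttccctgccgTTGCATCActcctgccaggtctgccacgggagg
Herpud1, chr8:94386292-94386349, plus strand: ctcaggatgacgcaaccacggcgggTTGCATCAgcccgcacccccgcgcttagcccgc
Herpud1, Trib3 and Asns were the 3 of these genes that were tested. On its brightest probe set each had a higher mean in KO vehicle than in WT vehicle, with an adjusted p of 1.00 (limma). The 2 groups did not overlap there, as for 15.9% of all genes, but on the second probe set of Trib3 they did. With 3 genes, nothing particular to the motif is read from this. The cAMP response element TGACGTCA, searched because the adenosine 2A receptor raises cAMP, was in 1.79% of all promoters and in 0 of the 32 members. Its shorter core TGACG, which stood in 20.8% of all promoters and in 23.0% of all genes, was in 19 of the 32 members (59.4%), Hspa5 and Atf4 among them. These 19 held 6 of 9 cytosolic genes, both mitochondrial genes with a promoter and 5 of 10 ER chaperones. They also held 2 of 3 genes of ER-associated degradation and 4 of 5 genes of the Atf4 branch. In the group of UPR sensors and Xbp1, 0 of 3 genes with a promoter held it, so Xbp1, the only member past the test, lacked it. A match to so short a core shows no binding, and a link to cAMP was not tested.

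The spread between arrays set what could be seen. Standard errors of the members' log2 fold changes ran from 0.124 (Hspa8) to 0.464 (Hspa1a). The 95% interval lay within 1 of 0, so within 2-fold either way, for 30 of 35 members when the knockout was set against WT vehicle, for 29 when ATL1222 was, and for 31 when ATL1222 was set against the knockout. It lay within 0.5 of 0 for 16, 12 and 10. For the remaining members the intervals reached beyond those sizes. Where a gene had more than 1 tested probe set, these gave the same direction for 14, 17 and 14 of 27 genes in the 3 comparisons. The first replicate was the higher one in all 3 groups for 13 of 35 members (37.1%, against 24.0% of all genes), Hsph1, Eif2ak3, Calr and Atf4 with the largest mean differences, and the second for Dnajc3 only (2.86%, against 15.2%).

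Other genes of these pathways were read from 4 wider lists. Of 30 further heat shock factor targets and co-chaperones 25 were tested, and 0 passed in any comparison. Fkbp4, a co-chaperone of Hsp90, read 399 and 464 in WT vehicle, 423 and 349 in KO vehicle, and 317 and 292 with ATL1222. The ATL1222 arrays were the lowest (log2 fold change -0.48 ± 0.21 against WT vehicle, limma adjusted p = 0.933). Hspa4l and Hspa13, relatives of Hsp70, had the smallest p in the other 2 comparisons, with log2 fold changes of -0.38 ± 0.24 in the knockout and 0.46 ± 0.22 in WT ATL1222 against KO vehicle and adjusted p of 1.00 and 0.611.

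The 8 subunits of TRiC, the cytosolic chaperonin that folds actin and tubulin, were all tested and 0 passed. Between ATL1222 and the knockout all 8 log2 fold changes were below 0, with a median of -0.090 and a lowest value of -0.20, for Cct4. Of all genes tested, 46.6% were above 0 in that comparison, with a median of -0.022. The 8 subunits were read on the same arrays, so their values are not independent. Cct4 read 6696 and 6302 in WT vehicle, 7407 and 6483 in KO vehicle, and 5942 and 6114 with ATL1222. Its ATL1222 arrays were the lowest, opposite to Xbp1 and Hspa5, and its limma adjusted p was 0.775. Cct7 had the smallest p in KO vehicle against WT vehicle, with a log2 fold change of 0.23 ± 0.16 (limma adjusted p = 1.00).

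Of 45 other ER folding, transport and degradation genes 40 were tested, and 1 passed, in WT ATL1222 against KO vehicle. That is 2.5% of the 40, against 0.999% of all genes tested. Creb3l2, an ER membrane-bound transcription factor that is freed by cleavage and raises genes of the secretory pathway, read 422 and 280.0 in WT vehicle, 268 and 248 in KO vehicle, and 777 and 682 with ATL1222. Both ATL1222 arrays were above all others, and the knockout was lowest. It was 2.72-fold higher with ATL1222 than in the knockout (log2 fold change 1.44 ± 0.22, limma adjusted p = 0.00413), and 14 of 17 alternatives kept that call. It was lost without the first WT ATL1222 array (limma adjusted p = 0.0638), with probe sets averaged (0.108) and without the variance trend (0.177). Against WT vehicle its log2 fold change was 1.05 ± 0.22 (limma adjusted p = 0.0921, or 0.0165 with the replicate number as a block). A second probe set gave 0.56 ± 0.40 against the knockout.

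Sil1, which releases ADP from Hspa5, had the smallest p of that list in the knockout. It read 64.9 and 19.9 in WT vehicle, 274 and 222 in KO vehicle, and 146 and 33.9 with ATL1222, highest in the knockout and spread widely elsewhere. The log2 fold change was 2.29 ± 0.56 against WT vehicle (limma adjusted p = 0.895). Hyou1, another ER Hsp70 relative, was chosen after its values were seen, since it went against Hspa5: it read 539 and 297, 329 and 333, and 234 and 181 in the same order. Its ATL1222 arrays were the lowest (log2 fold change -0.91 ± 0.27 against WT vehicle, limma adjusted p = 0.491), while its 2 other probe sets gave -0.40 and 1.11.

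Of 38 other genes of Atf4 and the integrated stress response 32 were tested and 0 passed. Between ATL1222 and the knockout, Ddit4, an inhibitor of mTOR signalling, and Slc3a2, the shared chain of amino acid transporters, had adjusted p of 0.249 and 0.394 (limma), or 0.0488 and 0.0328 with the replicate number as a block. Ddit4 read 1236 and 1077 in WT vehicle, 1063 and 886 in KO vehicle, and 1377 and 1399 with ATL1222. Slc3a2 read 833 and 591, 683 and 464, and 1013 and 749 in that order. For both, the ATL1222 arrays lay above the knockout arrays, with log2 fold changes of 0.51 ± 0.16 and 0.62 ± 0.23. Yars, the tyrosine tRNA ligase, read 204 and 252, 446 and 291, and 390.4 and 339, lowest in WT vehicle. Its log2 fold changes against WT vehicle were 0.63 ± 0.25 in the knockout and 0.65 ± 0.25 with ATL1222, with limma adjusted p of 1.00 and 0.772.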

How the data were processed

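The deposited table gives 1 intensity, not logged, for each of 45101 probe sets and each array. Biotin-labelled RNA was made from 1 µg of total RNA, per the labels' protocols, and the authors used GCOS, per the submitters' processing notes; neither its version nor how probes were summarized is given in the sources used here. Every deposited array had the same mean once 2% of probe sets at each end were left out, and this scaling was kept. Of the probe sets, 34945 had 1 gene symbol, 932 had several and 9160 were not listed; symbols were updated through a table of assembly GRCm38.p6. From these values 64 control probe sets were removed, each of 18193 genes was given its probe set with the highest mean, log2(signal + 16) was taken and the lowest 40% of genes by mean were left out (a signal of about 71.2). Fold changes are therefore on the log2(signal + 16) scale, which understates dim genes, and a probe set binds 1 part of a transcript only. limma 3.58.1 in R 4.3.3 fitted all 6 arrays at once with a variance trend, and p-values were adjusted by Benjamini-Hochberg over the 10916 genes tested (threshold 0.05). The fit was tested on simulated data. The smallest two-sided p that an exact test of 2 against 2 arrays allows is 0.333, and the number of arrays limits the precision.

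Replicate numbers are shared between groups, and the labels do not say what they mark. Differences between replicates 1 and 2 correlated over genes between groups (r of 0.23, 0.23 and 0.147). The fit with the replicate number as a block is therefore given where it changes a call of a member or wider-list gene.

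The members, role groups, wider lists and promoter motifs were chosen with earlier results of these data known. Members named with all their signals were those past the test and, in each role group, the 2 with the smallest p in each comparison; from wider lists, those past the test (with the block too) and the 1 with the smallest p. Dnajb4, Hspa4 and others are given by range, and Hspa1b, Hspa8 and Pdia6 were described after their values were seen. Promoters were searched in the RefSeq table of GRCm38.p6 on both strands, with Python 3.11.15 and pandas 2.3.3. More promoter stretches are shown than the 4 first planned, and protein sequences were not used here. Alternatives were another pseudocount (1 or 64), no filter or 60%, quantile and cyclic loess normalization, averaged or separate probe sets, no variance trend, only the 4 arrays compared, the replicate block, and each array left out. The receptor's own gene is not reported, and the genotype labels were not checked by expression.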

Additional observations from a re-analysis of the deposited data

How the results depend on the processing

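Under 17 alternatives, each changing 1 choice, the number of members past the test stayed 0 in KO vehicle against WT vehicle and in WT ATL1222 against WT vehicle. In WT ATL1222 against KO vehicle it was 1 and became 0 with probe sets averaged, 0 with every probe set tested separately and 0 with no variance trend; with 1 array left out it ran from 0 to 1. With the replicate number as a block it was 0, 0 and 1 in the 3 comparisons. Among members and wider-list genes described here, the block changed the call of Creb3l2 in WT ATL1222 against WT vehicle. It also changed those of Ddit4 and Slc3a2 in WT ATL1222 against KO vehicle, and no others. Unadjusted p under 0.05 was reached by 4, 1 and 9 members with the block, and by 760, 873 and 1398 of all genes. All 7 lost calls of a member were those of Xbp1, with the same direction each time, and no call reversed. Of the 105 values of a member in a comparison, 39 kept their sign under every alternative that gave a value, so the sign of most small fold changes is not settled. Medians of the role groups moved by more than the spread between replicates in 30 of 306 cases; the cause was not tested. Creb3l2 in WT ATL1222 against WT vehicle passed with 60% of genes left out (adjusted p = 0.0490), with only the 4 arrays compared (0.0466) and without the first WT vehicle array (0.0400), again by limma. The widest intervals were those of Hspa1a and Hspa1b, followed by the dim genes Asns, Atf6 and Trib3.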
